A study of Mus musculus with 4 samples.

Results

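The 10 genes described here mark regulatory T cells or encode members of the TNF receptor superfamily that activated T cells carry. They are Foxp3, Ikzf2, Ikzf4, Tnfrsf4, Tnfrsf9, Tnfrsf18, Ccr8, Lrrc32, Nrp1 and Cd4. They were chosen by symbol, and all 10 were found among the 21959 genes listed for each cell type. RNA sequencing covered CD3+ T cells and dendritic cells (DCs) from tumours of MC38, a transplanted mouse colon carcinoma. The mice were given PBS or the combination X-Ray+O-IMDQ, where O-IMDQ is a prodrug that radiotherapy activates according to the series. Both cell types were taken 72 h after the second dose of treatment. There was 1 library in each of the 4 groups: DC PBS, DC X-Ray+O-IMDQ, T PBS and T X-Ray+O-IMDQ. The labels give no mouse strain, age, sex, number of animals, cell gate for DCs or X-ray dose, and no arm with X-rays or O-IMDQ alone was analysed here. All 4 groups share the tumour, and the treated groups received the X-rays and the prodrug together.

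Regulatory T cells are CD4+ T cells that restrain immune responses, and the forkhead factor FOXP3 defines them. In tumours they carry high levels of the costimulatory receptors OX40 (Tnfrsf4), 4-1BB (Tnfrsf9) and GITR (Tnfrsf18) and of the chemokine receptor CCR8. Activated CD8+ T cells carry the TNF receptors too, so these receptors alone do not mark a regulatory T cell.

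With 1 library per group there was no replicate error, so each comparison is between libraries, and no p-value is given. Total counts ran from 14056428 for treated DCs to 23797357 for PBS DCs, with 18649824 and 18463944 for the PBS and treated T cell libraries. A ratio is of counts scaled to library size by the trimmed mean of M-values (TMM), with an exact conditional binomial 95% interval. A level is the deposited FPKM, which is per gene length, with an exact Poisson 95% interval. Reads amplified by PCR and carrying no molecular identifier are not separate molecules, so every interval and floor reflects counting error alone. A library at 0 was set to a floor of 3 counts, in ratios and in medians of lists. A gene was tested when either library had at least 20 counts, and was called at a ratio of 2-fold or more, up or down, with an interval that excluded 1. In T cells 18.3% of 11058 tested genes were called higher and 25.4% lower, so 43.7% were called. In DCs 30.2% of 10316 were called higher and 41.8% lower, so 72.0% were called. Many genes were counted in only 1 library of a pair: of 2314 genes with 50 to 200 counts in the PBS T cell library, 467 (20.2%) were at 0 in the treated one, and of 2351 such genes in the PBS DC library, 708 (30.1%) were. In the other direction 7.65% of such genes in treated T cells and 9.69% in treated DCs were at 0 with PBS.

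The labels were checked against marker genes. In the T cell libraries all 9 T cell markers found were counted, with sums of 11312 CPM (counts scaled to the library total) with PBS and 10433 CPM with treatment. In the DC libraries the same markers summed to 57.7 and 88.6 CPM, with 3 and 2 of the 9 at 0, among them Cd3e in both. The 8 conventional DC markers summed to 60182 CPM with PBS and 8126 CPM with treatment. H2-Ab1, an MHC class II chain, took 49192 and 5892 CPM of this, and the other 7 markers summed to 10990 and 2234 CPM. Most of that was Cd74, with 254798 and 26323 counts, while the next marker, Itgax, had 3982 and 3547. Macrophage markers summed to 6064 and 1672 CPM. Zbtb46 and Flt3, which define conventional DCs, had 9 and 16 counts in PBS DCs and 57 and 69 in treated DCs.

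Promoter sequence is shown for 4 genes: Foxp3, for the T cell difference, Tnfrsf4 and Tnfrsf18, which are neighbours, and Tnfrsf9, which shares letters with Foxp3. RefSeq windows (GRCm38.p6) were found for 6 of the 10 genes, with 8 start sites. Each line holds the 250 bases before a start site, 5′ to 3′. Capitals mark matches, on either strand, to the motifs named after the sequences.
Foxp3, the second listed start site, chrX:7580233-7580482, + strand: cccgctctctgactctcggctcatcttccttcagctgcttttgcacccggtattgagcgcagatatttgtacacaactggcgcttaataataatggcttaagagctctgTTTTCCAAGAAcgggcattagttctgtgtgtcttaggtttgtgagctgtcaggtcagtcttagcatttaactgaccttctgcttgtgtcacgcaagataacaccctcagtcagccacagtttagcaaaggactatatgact
Tnfrsf9, the second listed start site, chr4:150927749-150927998, + strand: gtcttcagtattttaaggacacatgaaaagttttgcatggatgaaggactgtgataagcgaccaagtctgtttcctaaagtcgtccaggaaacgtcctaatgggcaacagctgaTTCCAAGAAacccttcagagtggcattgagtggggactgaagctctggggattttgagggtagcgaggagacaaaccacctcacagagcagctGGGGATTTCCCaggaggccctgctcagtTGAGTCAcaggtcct
Tnfrsf18, chr4:156026072-156026321, + strand: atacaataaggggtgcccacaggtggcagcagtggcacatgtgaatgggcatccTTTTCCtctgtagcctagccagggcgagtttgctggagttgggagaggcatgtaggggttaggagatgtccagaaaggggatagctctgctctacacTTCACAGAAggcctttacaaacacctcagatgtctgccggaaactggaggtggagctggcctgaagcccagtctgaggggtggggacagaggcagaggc
Tnfrsf4, chr4:156013445-156013694, + strand: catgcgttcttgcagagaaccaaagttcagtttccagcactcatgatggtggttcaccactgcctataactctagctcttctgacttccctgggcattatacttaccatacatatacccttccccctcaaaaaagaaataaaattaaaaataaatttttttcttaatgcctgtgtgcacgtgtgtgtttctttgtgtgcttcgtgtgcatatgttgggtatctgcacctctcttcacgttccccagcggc
The motifs searched were NF-kB (its standard 10-base consensus), AP-1 (TGANTCA), NFAT (GGAAAA), forkhead (TGTTTAC), RUNX (TGTGGT) and STAT (TTCNNNGAA). The second windows of Foxp3 and Tnfrsf9 hold the same STAT match, TTCCAAGAA, 139 and 136 bases before the start at its first base, and Tnfrsf18 holds TTCACAGAA. In Foxp3 the STAT match overlaps an NFAT match, and the Tnfrsf9 window also holds the AP-1 match TGAGTCA and 2 overlapping NF-kB matches, GGGGATTTCC and GGGATTTCCC. The first listed window of Foxp3 holds no match, and that of Tnfrsf9 an NFAT match only. Of the 32851 promoter windows of this length, 7.02% hold a STAT match, 6.75% an AP-1 match and 20.4% an NFAT match, while 7.25% hold an NF-kB, 3.17% a forkhead and 14.0% a RUNX match. The Tnfrsf4 window, like those of Ccr8 and Nrp1, holds none of these motifs. These matches describe letters and not bound sites.

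Ordered by level in the T cell libraries, the genes fell into a high and a low set. In the PBS T cell library the levels were 670.7 FPKM for Tnfrsf4, 409 FPKM for Tnfrsf9, 199 FPKM for Ccr8 and 192 FPKM for Tnfrsf18. The next gene, Nrp1, had 3.77 FPKM, followed by Ikzf4, Ikzf2, Foxp3, Lrrc32 and Cd4, the lowest at 0.226 FPKM. Of these neighbours only Ccr8 and Tnfrsf18 had overlapping counting intervals. In the treated T cell library the same 4 genes led, with Tnfrsf18 above Ccr8, and Cd4 stood between Nrp1 and Ikzf4 at 3.38 FPKM. There only Cd4 and Ikzf4 overlapped. For scale, Cd8a, a chain of the CD8 coreceptor, had 686 FPKM with PBS and 708 FPKM with treatment. Tumour T cell RNA therefore held far less Cd4 than Cd8a per length in both libraries.

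**Figure D1:**
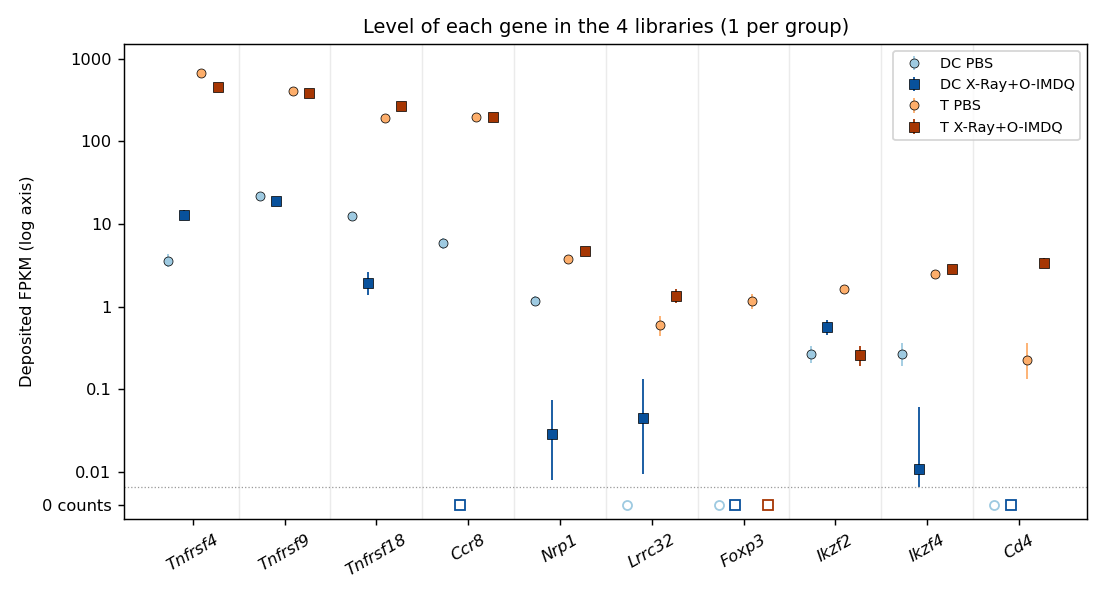
Deposited FPKM (log axis) of the 10 genes in the 4 libraries, with 1 point per library, exact Poisson 95% intervals as bars, and open symbols for libraries at 0 counts. Tnfrsf4, Tnfrsf9, Tnfrsf18 and Ccr8 stand above 190 FPKM in both T cell libraries, and the treated T cell library has no Foxp3 count. The bar of Ikzf4 in treated DCs is drawn down to the dotted line and extends below it.

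The comparison within T cells sets the treated library beside the PBS library, and cannot part treatment from other differences between them. Cd4 and Lrrc32 were called higher in the treated library, and Foxp3 and Ikzf2 lower. The other 6 genes, all 3 TNF receptors among them, were called neither, although Tnfrsf4 was called lower at a 1.5-fold threshold. Calls were thus made for 4 of 10 genes, beside 43.7% of all tested genes, and the median log2 ratio of the 10 was 0.07 beside -0.07 for all tested genes. Foxp3 was tested through its PBS counts alone, and Cd4 through its treated counts alone. In bulk RNA, fewer cells of a type and less RNA per cell cannot be told apart.

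The transcription factors of the set differed from each other. Foxp3 (ENSMUSG00000039521, chromosome X, 7439883 to 7461484, in GRCm39, the build in the submitters' notes) had 99 counts in the PBS T cell library and 0 in the treated one. The 99 counts are 1.16 FPKM with an interval from 0.943 to 1.41 FPKM. In the treated library the floor of 3 counts is 0.0355 FPKM, and the Poisson upper limit is 0.0437 FPKM. At that floor the treated library was 33.3-fold lower, with an interval limit of 26.6-fold. The share of genes of like count that were at 0 in the treated library, 20.2%, stands beside this value, and its part in the result was not tested. Over the 4 libraries, the genes with the profile nearest to Foxp3 among 11985 compared, by Euclidean distance of centred log2(CPM + 1), were Cxcl13, Fam241b and St6galnac2. All 3 had exactly the counts of Foxp3, 99 in the PBS T cell library and 0 in the others, so this likeness comes from 1 library.

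Ikzf2 encodes Helios, an Ikaros family factor of many regulatory T cells and of some activated T cells. It had 354 counts with PBS and 55 with treatment, or 1.63 and 0.257 FPKM. The ratio was 6.49-fold lower in the treated library, with an interval from 4.88-fold to 8.79-fold lower. Ikzf4, which encodes Eos, a partner of FOXP3 in repression, had 296 and 336 counts, a ratio of 1.13-fold with an interval from 0.959 to 1.32. Helios thus stood apart between the T cell libraries and Eos did not pass the 2-fold threshold. Related factors were not called either: Ikzf1 (Ikaros) had a log2 ratio of 0.61 and Ikzf3 (Aiolos) one of 0.03. Of 9 Ikaros family genes and FOXP3 partners, 1 was called higher, Foxp4 at 2.20-fold, and 0 lower, beside 18.3% and 25.4% of all tested genes.

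The 3 TNF receptors are costimulatory receptors that signal through TRAF adaptors. Tnfrsf4 (chromosome 4, 156098300 to 156101069, GRCm39) and Tnfrsf18 (156110621 to 156113352) lie on the same strand 9552 bases apart with 0 listed genes between them, and Tnfrsf9 lies on the same chromosome at 150999019 to 151030559. Tnfrsf4 had 17073 counts with PBS and 11434 with treatment, which is -0.59 on the log2 scale (95% interval -0.63 to -0.56). Tnfrsf18 had 5445 and 7575 counts, which is 0.46 on the log2 scale (95% interval 0.41 to 0.51). The neighbours therefore had ratios of opposite sign, both with intervals excluding 0 and both inside the 2-fold threshold. Tnfrsf9 had 20769 and 19486 counts, a log2 ratio of -0.10. Centred on genes of like length, the log2 ratios were -0.24 for Tnfrsf4 and 0.81 for Tnfrsf18, still opposite in sign. Summed, the 3 receptors took 2321 CPM of the PBS T cell library and 2085 CPM of the treated one.

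Ccr8, the receptor for the chemokines CCL1 and CCL8 and a marker of tumour regulatory T cells, had 4360 and 4312 counts. Its log2 ratio of -0.03 had limits of -0.09 and 0.03, and centred on genes of like length it was 0.49. The level was thus nearly the same in the library with Foxp3 counts and in the library without. Its ligand Ccl1 had 20768 counts with PBS and 6269 with treatment, 3.34-fold lower (log2 limits -1.78 and -1.70). Ccl8, with 815 and 503 counts, had a log2 ratio of -0.71 and was not called.

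The surface proteins GARP and neuropilin-1 did not move alike. Lrrc32 encodes GARP, which holds latent TGF-beta on the surface of activated regulatory T cells and of platelets. It had 52 counts with PBS and 117 with treatment, 2.23-fold higher with an interval from 1.60 to 3.15, so that the interval includes ratios below the threshold. On the log2(CPM + 1) scale the difference was 0.93 and the call was lost. Nrp1, a coreceptor for semaphorins and VEGF that marks regulatory T cells of thymic origin, had 688 and 843 counts, a log2 ratio of 0.28. Other cells carry these genes: of 6 endothelial markers, Cdh5, Tek and Emcn were at 0 in both T cell libraries and Kdr had 21 counts and 0. The list summed to 25.1 CPM with PBS and 36.2 CPM with treatment, of which Pecam1, which leukocytes also carry, took 24.0 and 36.2 CPM. Platelet markers summed to 50.1 and 58.8 CPM, nearly all of it Pf4. Their part in the Lrrc32 and Nrp1 values was not tested.

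Cd4, the coreceptor of helper and regulatory T cells, had 17 counts with PBS and 252 with treatment. Treatment went with 14.7-fold more Cd4, with limits of 8.99 and 25.6. DCs and macrophages of mice can carry Cd4 too. Macrophage markers in the T cell libraries summed to 182 CPM with PBS and 173 CPM with treatment, and conventional DC markers to 390.5 and 280.5 CPM, with Zbtb46 at 120 counts and 0. Single myeloid markers went both ways: Fcgr1 had 7 and 341 counts, Cd209a 7 and 219, Sirpa 12 and 140 and Xcr1 0 and 70, all called higher, while Adgre1 had 334 and 0, Clec10a 130 and 0 and Mgl2 206 and 32, all called lower. Of 8 tested macrophage markers 1 was called higher and 3 lower, and of 5 tested markers of the cDC2 subset 2 were called in each direction. Their part in the Cd4 value was not tested. Of the 5 listed genes of CD4+ T cells, 2 were called higher and 1 lower, beside 18.3% and 25.4% of all tested genes. Besides Cd4, Il6ra, an IL-6 receptor chain, had 71 and 250 counts and was 3.49-fold higher. Zbtb7b, which fixes the CD4 lineage, had 57 and 43 counts and Cd40lg had 238 and 152, neither called. Izumo1r, which encodes folate receptor 4 and is carried by regulatory and follicular T cells, had 1210 and 268 counts and was 4.56-fold lower. Cd8a and Cd8b1 had log2 ratios of 0.02 and 0.34 and were not called.

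**Figure D2:**
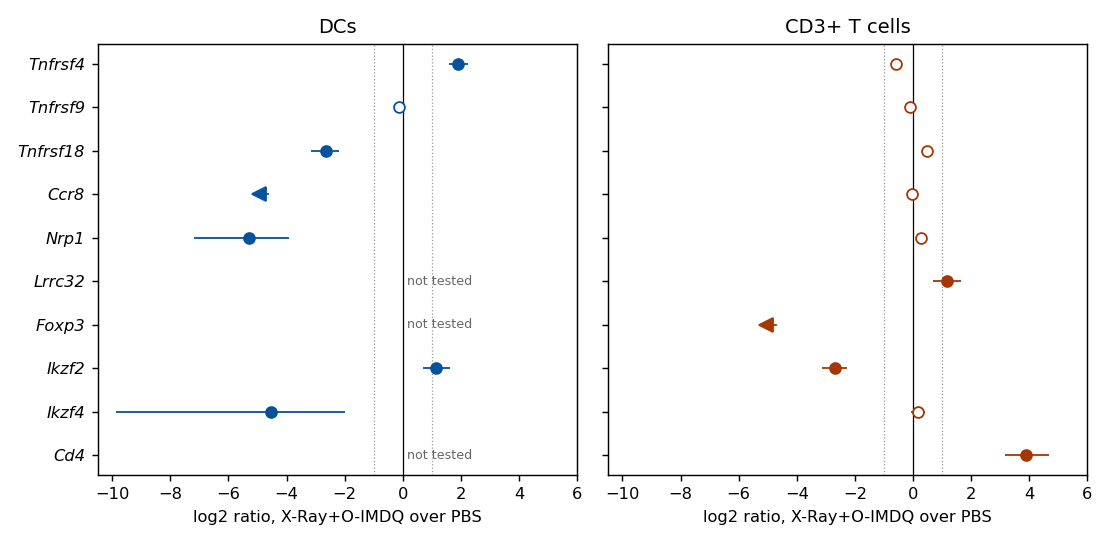
Log2 ratio of X-Ray+O-IMDQ over PBS for each gene in DCs (left) and CD3+ T cells (right), with exact 95% intervals for counting error as bars. Filled circles are called, open circles are not, triangles are values at the floor of 3 counts for a library at 0, and dotted lines mark 2-fold. In T cells Foxp3 and Ikzf2 lie to the left and Cd4 and Lrrc32 to the right, while in DCs 4 called genes lie to the left.

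Counts set against another gene of the same library do not depend on scaling. Per 1000 summed counts of Cd3d, Cd3e and Cd3g, which encode the shared CD3 chains, Foxp3 had 0.755 counts with PBS and 0 with treatment. On the same basis Ikzf2 had 2.70 and 0.504 counts, with a ratio of 0.187 and an interval from 0.138 to 0.249. Cd4 had 0.130 and 2.31 counts, 17.8 times as many with treatment, with an interval from 10.9 to 31.1. Tnfrsf18 had 41.5 and 69.4 counts, a ratio of 1.67, and Lrrc32 0.397 and 1.07 counts, a ratio of 2.70. Per Cd8a count the ratios were 0.152 for Ikzf2 and 14.5 for Cd4. For these 4 genes, as for Foxp3, the direction was the same as with TMM scaling. It was not for Tnfrsf9 and Ccr8: per CD3 count the ratios were 1.13 and 1.19, both with intervals above 1, against 0.930 and 0.980 with TMM. Per Cd4 count all 9 other genes had ratios below 1, from 0 for Foxp3, which has an upper limit of 0.00298, to 0.153 for Lrrc32. Those ratios rest on the 17 Cd4 counts of the PBS library.

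The wider regulatory T cell list, 30 genes chosen with earlier results of these data known, had 2 of 27 tested genes called higher and 4 lower in T cells. Its median log2 ratio was 0.23 beside -0.07 for all tested genes, of which 18.3% were called higher and 25.4% lower. Il2ra, the high-affinity IL-2 receptor chain, and Ctla4, the inhibitory receptor, had log2 ratios of 0.45 and 0.23 and were not called. Among the called genes, Prdm1, which encodes the repressor BLIMP1, was 2.73-fold higher. Areg, a tissue repair ligand, went from 813 to 125 counts and was 6.56-fold lower, and Il10, the suppressive cytokine, went from 46 counts to 1, a log2 ratio of -5.54 (limits -10.9 and -2.99).

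Ligands and signalling genes of the receptors differed by gene. Tnfsf4, which encodes the OX40 ligand, had 37 counts with PBS and 426 with treatment in T cells and was 11.4-fold higher, while its receptor gene Tnfrsf4 was not called. Tnfsf9, the 4-1BB ligand, had a log2 ratio of 0.55, and Tnfsf18, the GITR ligand, was at 0 in all 4 libraries. The floor of 3 counts is at most 0.213 CPM in them. Of 14 tested TNF ligand genes 4 were called higher and 2 lower, with a median of 0.48, and Lta, which encodes lymphotoxin alpha, was 2.43-fold higher. Of 17 other TNF receptor genes 2 were called higher and 7 lower, with a median of -0.46. Tnfrsf25 (DR3) was 2.66-fold higher and Tnfrsf13c (the BAFF receptor) had 160 counts and 0, 53.8-fold lower at the floor. The abundant Cd27 and Tnfrsf1b (TNFR2) were not called.

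Of 12 TRAF adaptors and signalling genes 2 were called higher and 1 lower in T cells, beside 18.3% and 25.4% of all tested genes. Ripk1, a kinase of TNF receptor signalling, had 32 and 507 counts and was 15.7-fold higher. Traf3, an adaptor that restrains non-canonical NF-kB signalling, had 413 and 1720 counts and was 4.13-fold higher. Traf1, an adaptor of OX40 and 4-1BB, was not called, with a log2 ratio of 0.85. Around Nrp1, 7 of 9 tested partner genes were called lower and 0 higher, with a median of -4.26. Of all tested genes, at all count levels, 25.4% were called lower. Plxna1, Plxna2, Plxna3, Plxna4, Kdr and Sema3c were at 0 in the treated library and were tested through their PBS counts alone. No call but lower was open to them, and the median is the value of Plxna3, with 57 counts and 0, at the floor. Plxna1, a semaphorin receptor chain, had 182 counts and 0, 61.2-fold lower at the floor. Of the 18 listed partners, 6 were at 0 in the PBS T cell library and 14 in the treated one. The 20.2% at 0 given above is of genes with 50 to 200 PBS counts, so it covers a different set. Fibroblast markers were mixed. Of 5 tested 3 were called lower and 0 higher, with a median of -3.18, among them Col1a1 with 450 and 39 counts and Col1a2 with 414 and 3. The most abundant, Col3a1 with 1041 and 1204 counts and Dcn with 1044 and 1380, were not called. The list summed to 160 CPM with PBS and 142 CPM with treatment. The part of fibroblasts in the values of the Nrp1 partners was not tested. Of 11 tested genes of latent TGF-beta display and activation, around GARP, 1 was called higher and 4 lower, with a median of -0.44. Ltbp3 and Ltbp4, binding proteins of latent TGF-beta, had 155 and 0 counts and 317 and 33 counts, Ltbp1 had 407 and 180, and Tgfb3, a TGF-beta ligand, 32 and 4. The gene called higher, Nrros, which encodes a related carrier of latent TGF-beta in myeloid cells, had 358 and 1176 counts and was 3.26-fold higher, while Tgfb1 had a log2 ratio of -0.87 and was not called.

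**Figure D3:**
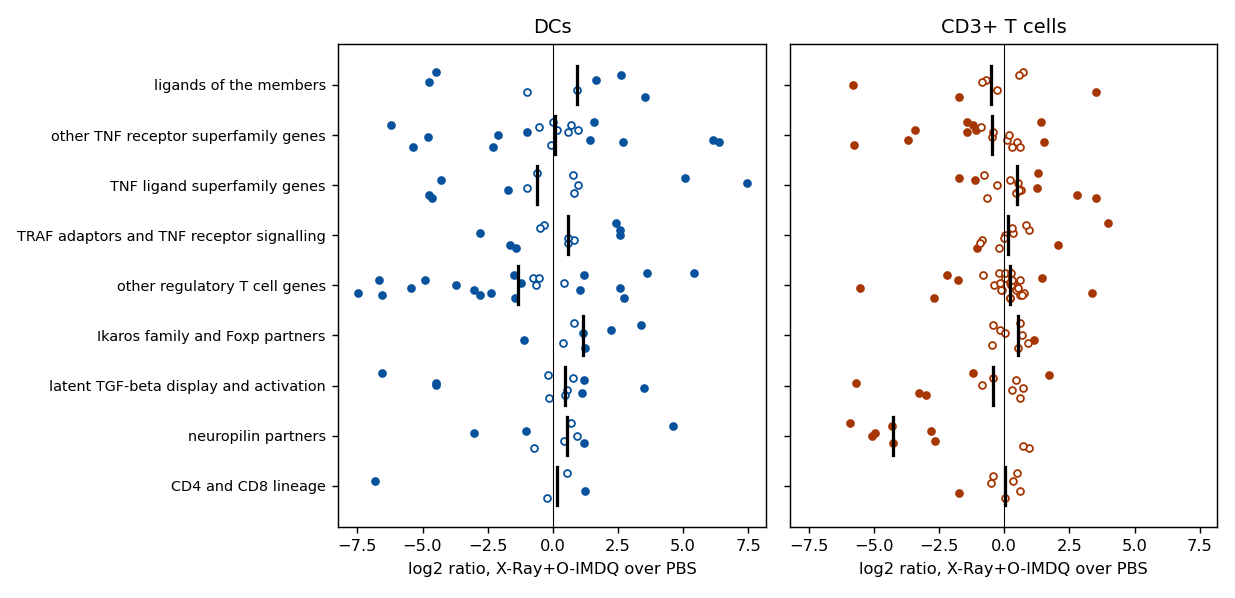
Log2 ratios of X-Ray+O-IMDQ over PBS for the tested genes of 9 related lists in DCs (left) and CD3+ T cells (right), with filled circles for called genes, open circles for others and black bars for medians. Vertical spread within a list has no meaning. The neuropilin partners in T cells have the lowest median, -4.26, which is the value of Plxna3 at the floor of 3 counts.

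In DCs the treated library was set beside the PBS library in the same way. Tnfrsf4 and Ikzf2 were called higher in the treated DC library, and Tnfrsf18, Ccr8, Nrp1 and Ikzf4 lower. Tnfrsf9 was called neither, and Foxp3, Cd4 and Lrrc32 were not tested. Calls were thus made for 6 of 7 tested genes, beside 72.0% of all tested genes. The median log2 ratio of the 7 was -2.66, the value of Tnfrsf18, beside -0.36 for all tested genes. Ccr8, Nrp1 and Ikzf4 were tested through their PBS counts alone, so a call of higher was not open to them. With at least 20 counts in both libraries, 2 of the set were called higher and 1 lower. Under that filter 59.1% of 6976 genes were called, with a median of 0.20.

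Foxp3 and Cd4 had 0 counts in both DC libraries. The floor of 3 counts is 0.0275 FPKM of Foxp3 with PBS and 0.0466 FPKM with treatment, and 0.0313 and 0.0529 FPKM of Cd4. Lrrc32 had 0 and 3 counts, at or under the floor in both. Expression of these 3 genes was therefore not detectable, or barely counted, at this depth.

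Tnfrsf9 led both DC libraries with 1419 counts with PBS and 732 with treatment, or 21.9 and 19.1 FPKM, a log2 ratio of -0.14 that became 0.22 when centred on the median of all genes and 0.92 when centred on genes of like length. Activated DCs are known to carry 4-1BB. Tnfrsf4 had 117 and 248 counts, or 3.60 and 12.9 FPKM, and was 3.74-fold higher with an interval from 2.99 to 4.70. Tnfrsf18 had 456 and 41 counts, or 12.6 and 1.91 FPKM, and was 6.30-fold lower with an interval from 4.57-fold to 8.90-fold lower. Centred on genes of like length, the log2 ratios were 3.03 for Tnfrsf4, against 1.90, and -1.53 for Tnfrsf18, against -2.66. As in T cells, Tnfrsf4 and its neighbour Tnfrsf18 had ratios of opposite sign, but with the signs exchanged. This difference between the cell types was not tested.

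Ccr8 had 164 counts in PBS DCs and 0 in treated DCs. It was 31.0-fold lower at the floor of 3 counts, with an interval limit of 24.9-fold. Nrp1 had 275 and 4 counts, a log2 ratio of -5.28 (limits -7.17 and -3.91), and Ikzf4 had 41 counts and 1, a log2 ratio of -4.54 (limits -9.88 and -1.98). Ikzf2 had 73 and 92 counts and was 2.22-fold higher with an interval from 1.62 to 3.07, opposite to its direction in T cells. Centred on genes of like length, its log2 ratio was 0.55, and on the log2(CPM + 1) scale the difference was 0.94, and both settings lost the call. The 30.1% of genes with 50 to 200 PBS counts that were at 0 in the treated DC library stand beside the value of Ccr8. Nrp1 and Ikzf4, with 275 and 41 PBS counts, lie outside that window and were not at 0. The part of such zeros in the value of Ccr8 was not tested.

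**Figure D4:**
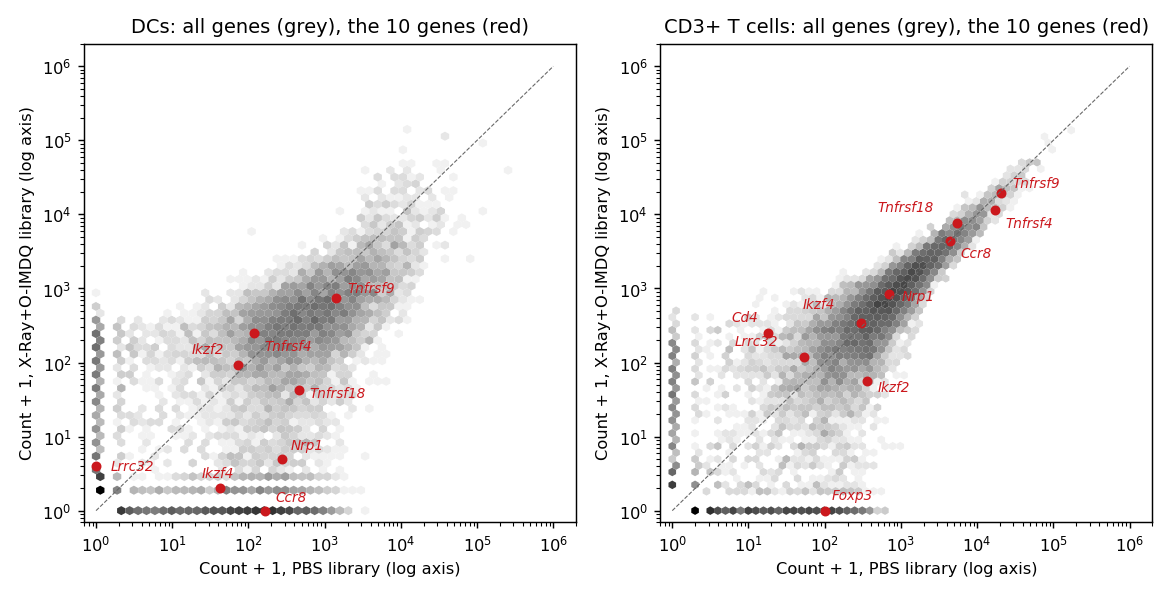
Counts plus 1 (log axes) of all genes with a symbol in the PBS library against the X-Ray+O-IMDQ library of DCs (left) and CD3+ T cells (right), darker grey for more genes, with the 10 genes in red, except Foxp3 and Cd4 in DCs, which are at 0 in both. The bottom row holds genes at 0 in the treated library, with Ccr8 (164 counts with PBS) in DCs and Foxp3 (99) in T cells, and the abundant TNF receptors lie near the dashed line of equal counts in T cells.

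Ligand genes in DCs were counted at higher levels than in T cells for some receptors. Tnfsf9, the 4-1BB ligand, had 2809 counts with PBS and 804 with treatment, a log2 ratio of -0.99 that was not called. Tnfsf4, the OX40 ligand, had 143 counts and 0 and was 27.0-fold lower at the floor, opposite to its direction in T cells. The CCR8 ligands Ccl1 and Ccl8 had 53 and 345 counts and 4902 and 8668 counts, and were 11.5-fold and 3.12-fold higher. Of 7 tested ligand genes of the set, 3 were called higher and 2 lower, beside 30.2% and 41.8% of all tested genes. Tgfb1, which GARP displays, had 234 and 6 counts and was 22.1-fold lower.

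Of 22 tested genes of the wider regulatory T cell list, 6 were called higher and 12 lower in DCs, with a median of -1.34. Il2ra had 500 and 1884 counts and was 6.65-fold higher. Ctla4 had 0 and 72 counts and Il10 504 counts and 0, which at the floor is 42.3-fold higher and 95.2-fold lower. Of 18 other TNF receptor genes 5 were called higher and 6 lower, with a median of 0.09, and of 11 TNF ligand genes 2 were called higher and 4 lower, with a median of -0.61. Among the receptors Tnfrsf1b was 2.71-fold higher, and Tnfrsf13b, which encodes the BAFF and APRIL receptor TACI, had 1884 and 39 counts and was 27.4-fold lower. Of 11 signalling genes 3 were called in each direction. Traf3 was 5.97-fold higher, and was called higher in T cells too, and Birc3, an inhibitor of apoptosis, was 2.68-fold lower.

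T cell genes counted in the DC libraries were compared with the 10 genes. Cd3d had 434 counts with PBS and 812 with treatment, Cd3g had 576 and 1, and Cd3e had 0 and 0, so genes of 1 complex moved in opposite directions there. Per 1000 summed CD3 counts Tnfrsf9 had 1405 counts in PBS DCs against 158 in PBS T cells, and 900.4 against 179 in the treated pair. Tnfrsf9 was thus 8.87 and 5.04 times as frequent per CD3 count in DCs as in T cells. With PBS the same was 10.9 for Tnfrsf18, 4.88 for Ccr8, 51.9 for Nrp1 and 26.8 for Ikzf2, while Tnfrsf4 had 116 and 130 counts, or 0.889 times. With treatment Tnfrsf4 had 305 counts in DCs and 105 in T cells, while Tnfrsf18 and Nrp1 had 0.726 and 0.637 times the T cell value. In the same pair Ikzf2 had 224 times the T cell value, Ikzf4 0.399 times, and Ccr8 was at 0 in DCs. The CD8 chains differed too: with PBS, Cd8b1 had 1.86 times the T cell value per CD3 count in DCs and Cd8a 0.00279 times. Values per CD3 count in DCs are therefore unstable. Markers of mature regulatory DCs, which can carry TNF receptors, had 4 of 7 tested genes called higher and 2 lower. For all tested genes in DCs the shares were 30.2% higher and 41.8% lower. The markers of mature regulatory DCs summed to 2248 CPM with PBS and 6414 CPM with treatment. Ccl17 alone took 516 and 5644 CPM of this, and the other 7 markers summed to 1732 and 769.7 CPM. Plasmacytoid DC markers, whose cells carry Nrp1, summed to 216 and 443.5 CPM, of which Bst2 took 194 and 406 CPM. Siglech had 166 counts and 0, while Tcf4 had 134 and 461 and was 6.07-fold higher. The part of these cells in the values was not tested.

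**Figure D5:**
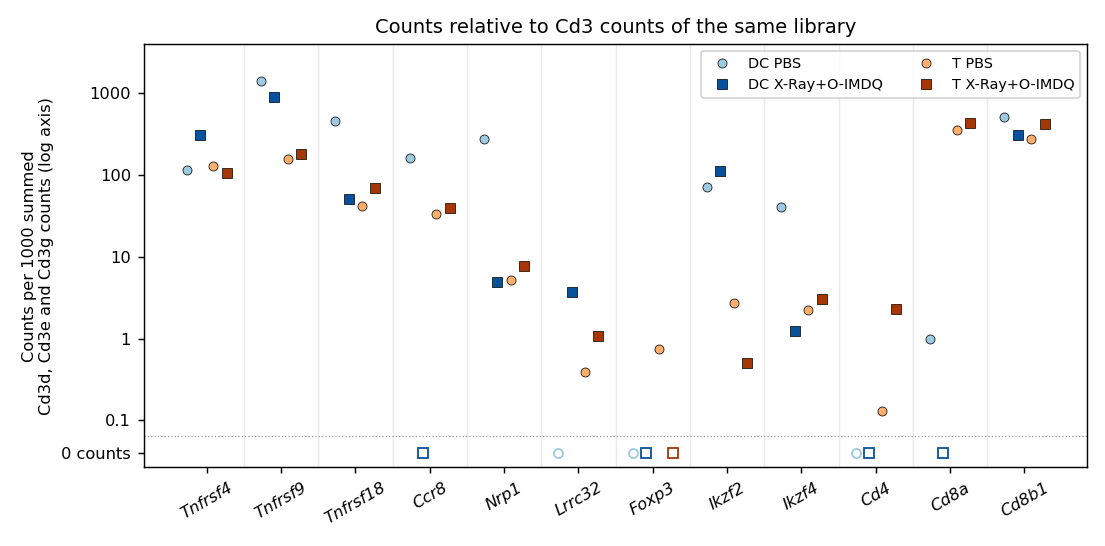
Counts of the 10 genes, with Cd8a and Cd8b1 for comparison, per 1000 summed Cd3d, Cd3e and Cd3g counts of the same library (log axis), with open symbols for 0 counts. Tnfrsf9 stands at 1405 in the PBS DC library against 158 in the PBS T cell library, and Ikzf2 is higher in both DC libraries than in both T cell libraries.

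Between the cell types, all 9 tested genes were called higher in T cells than in DCs with PBS, where 34.8% of 11364 tested genes were called higher and 25.6% lower, so 60.3% were called. With total counts in place of TMM, 69.6% of the called genes were higher in T cells against 57.6% with TMM, a scaling that moves the median of all genes from 0.17 to 0.70 on the log2 scale. The ratios ran from 2.21-fold for Nrp1, whose call was lost when centred on all genes or on genes of like length, to 129-fold for Tnfrsf4, and Tnfrsf9 was 13.0-fold higher. With treatment 8 of 9 were called higher, beside 43.4% of 10606 genes, and 1 was called lower, beside 31.1%, with 74.4% called in all. Of these 8, Ikzf4, Ccr8, Lrrc32, Nrp1 and Cd4 were tested through their T cell counts alone. No call of lower was open to them, nor to Foxp3 and Lrrc32 with PBS, tested in the same way. With genes tested through 1 library alone left out, 3 of the set were called higher and 1 lower with treatment. With PBS 7 were then called higher and 0 lower. Among all genes left with treatment, 6798 in number, 1814 were called higher and 2302 lower. Tnfrsf9 was again 13.0-fold higher, Tnfrsf4 was 22.4-fold higher and Tnfrsf18 89.9-fold higher. Ikzf2 was the exception, 3.44-fold lower in T cells than in DCs, with an interval from 2.44-fold to 4.89-fold lower. These comparisons use the libraries of the comparisons above and are not independent of them.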

How the data were processed

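RNA of DCs and CD3+ T cells was sequenced by BGI, per the labels. Build GRCm39 and the tools R 3.3.1, RSEM 1.2.12, HISAT2 2.0.4 and DESeq2 1.24.0 are named in the submitters' processing notes. Their order and roles are not given in the sources used here. Deposited values are raw counts per gene and FPKM, per the file headers. The authors scaled FPKM to the listed gene length and the counted reads of each library: each value was checked to equal the count so scaled, within a relative difference of 2.04e-07. Columns were assigned through the read file that each sample's description names, although the PBS titles carry number 2 where the descriptions carry 1, and the treated DC title 1 where its description carries 4. In each of the 2 tables a further PBS library (4 columns in all) matched no sample and was not used. Positions of genes come from the count tables.

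Counts were scaled by TMM over each pair of libraries (edgeR 4.0.16, R 4.3.3). A library at 0 was set to 3 counts. Genes without a symbol (51) were not tested. Ratios within a library were conditional odds ratios with exact 95% intervals. The intervals and calls were tested on simulated Poisson counts with known folds and no further variation between libraries. That test covers counting error only. The 10 genes, 9 related lists, 16 marker lists and the rules were chosen with earlier results of these data known. Named genes outside the 10 were the most abundant, highest and lowest called of each list with at least 100 counts, and a fixed set of ligands and partners. Marker genes and Tgfb3 were named after their values were seen. The NF-kB consensus replaced a narrower pattern, found in 0.356% of all windows and in none of the 8 here, after the windows were seen. The count window of 50 to 200 and the CD3 comparison between cell types were chosen after seeing the data. Alternatives were other scalings (total counts, DESeq2 1.42.0 size factors, upper quartile, FPKM, centring), count filters, fold thresholds, log2(CPM + 1) and centring by gene length.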

Additional observations from a re-analysis of the deposited data

Results flagged for a closer look

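Ikzf2 was called in opposite directions in the 2 cell types, with a log2 ratio of treated over PBS of 1.15 in DCs and -2.70 in T cells. The counts were 73 and 92 in DCs and 354 and 55 in T cells. With 1 library per group the difference between the cell types was not tested.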

How the results depend on the processing

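No paired analysis was possible because each group had 1 library. No called gene of the set changed direction between libraries under the alternatives, which were total counts, DESeq2 size factors, upper quartile, FPKM, median centring, 3 count filters, 2 fold thresholds, log2(CPM + 1) and centring by gene length. Ratios of FPKM equal those of total counts by construction. In DCs the 2 genes called higher became 1 with at least 100 counts in either library, with log2(CPM + 1) and with length centring, and 0 at 4-fold. The 4 called lower became 1 with at least 20 counts in both libraries, which leaves out genes near 0. In T cells the 2 called higher became 1 with 20 counts in both libraries, at 4-fold and with log2(CPM + 1), and the 2 called lower became 1 with 100 counts in either or 20 in both, and 3 at 1.5-fold. Foxp3, at 99 and 0 counts, is left out by both filters. Between cell types with treatment, the 8 genes called higher became 3 with 20 counts in both, and the 1 called lower became 0 with 100 counts in either library and at 4-fold.

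Over all genes with 20 counts in both libraries, 1825 were called lower in DCs (against 4317) and 1378 in T cells (against 2805), and between cell types 2108 were called higher with PBS (against 3949) and 1814 with treatment (against 4599). At 4-fold, 1922 were called higher in DCs (against 3112), 1003 higher and 1774 lower in T cells (against 2025 and 2805), and 1750 lower between cell types with PBS (against 2906). Per CD3 count in place of Cd4, T cell ratios changed side of 1 for Ikzf4 at 1.36, Tnfrsf9 at 1.13, Tnfrsf18 at 1.67, Ccr8 at 1.19, Lrrc32 at 2.70 and Nrp1 at 1.47. The Cd4 counts of 17 and 252 set the first ratios. Depth limits the genes at 0 and Cd4 with PBS.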
